A study of Mus musculus with 4 samples.

Results

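Author cluster 04 is a group of 291 cells among the 3023 single cells deposited for a study of Trem2 and demyelination in the mouse brain. Its members were all cells that the authors' table of cells assigns to that cluster, 1 of 8. The cells came from male mice 12 to 14 months old and were sorted as live CD11b+ CD45low cells, a gate used for microglia. The transcripts were measured with 10x Chromium droplets of v2 chemistry, in which transcripts are read from their 3′ ends and counted as unique molecular identifiers (UMIs). The groups, with 1 library each, were Trem2 -/- mice fed 0.2% cuprizone for 12 weeks, Trem2 +/- mice on the same diet and time, Trem2 +/+ mice on that diet and time, and Trem2 +/+ mice fed control diet for 12 weeks. In each library 2 hemibrains were pooled, so the animals behind a value cannot be told apart. The Trem2 allele is not given in the sources used here. With 1 library a group there is no replicate check: all values below describe these libraries, no p-value is given, and the 95% intervals in brackets cover counting error only.

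Microglia are the resident macrophages of the brain. Cuprizone kills oligodendrocytes, which strips myelin from axons and leaves lipid-rich debris that microglia engulf. TREM2 is a lipid-binding receptor of microglia that signals through the adaptor TYROBP, and near damage it helps microglia to shift from a resting, homeostatic state to one called disease-associated, with genes of lipid handling, lysosomes and adhesion.

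Cluster 04 was mainly a cluster of the heterozygous and wild-type cuprizone libraries. It held 13 of 885 cells, 1.47% [0.784 to 2.499], in the knockout library and 150 of 802 cells, 18.7% [16.1 to 21.6], in the heterozygous library. In the wild-type cuprizone library it held 122 of 765 cells, 15.95% [13.4 to 18.7], and on control diet 6 of 571 cells, 1.05% [0.387 to 2.27]. The knockout and control-diet shares were both low, and their intervals overlap each other but neither of the other 2. Its cells held a median of 12072 UMIs in the knockout library, 10574 in the heterozygous library, 10796 in the wild-type cuprizone library and 10828 on control diet. In the other microglial clusters of the cuprizone-fed heterozygous and wild-type libraries the median ranged from 3496 UMIs in cluster 01 to 17903 in cluster 02. The libraries held 4747730 to 7849741 UMIs in all, no cell of the cluster shared its barcode with another library, and a doublet caller marked 0 of its cells (22 of all 3023).

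The comparisons below set cluster 04 against clusters 01, 02, 05, 06 and 08 of the same library, together called the other microglia. Cluster 03, led by neutrophil and choroid plexus genes, and cluster 07, led by genes of border-associated macrophages, were left out. Levels are UMIs summed over the cells and divided by the total of those cells, in counts per 1000000 (CPM). Trem2 itself stood at 638 CPM in knockout cells of the cluster, 1959 CPM in heterozygous cells, 3190 CPM in wild-type cuprizone cells and 3666 CPM in control-diet cells, so the order follows the labels. Whether the 3′ tag lies in the deleted part is not known here. The other microglia of those libraries had 518, 1689, 2865 and 3121 CPM in the same order.

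The 4 genes that mark the cluster were higher in it than in each of the other 5 microglial clusters in all 4 libraries. Spp1 encodes osteopontin, a secreted adhesion protein. Its level was 666 CPM in knockout cells of the cluster, 3728 CPM in heterozygous, 5335 CPM in wild-type cuprizone and 3387 CPM in control-diet cells. The other microglia had 25.7, 199, 200.3 and 127 CPM in the same order of libraries.

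The lipoprotein lipase gene Lpl had 350 CPM in knockout cells, 899.7 CPM in heterozygous, 943 CPM in wild-type cuprizone and 762 CPM in control-diet cells of the cluster. The other microglia had 24.5, 143, 136 and 24.4 CPM in that order. Lgals3, which encodes galectin-3, a lectin linked to damaged lysosomes and phagocytosis, had 2789, 864, 905 and 836 CPM in the cluster, against 50.2, 115, 98.1 and 15.1 CPM in the other microglia. The knockout cells were thus the lowest of the 4 libraries for Spp1 and Lpl and the highest for Lgals3.

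Apoe, the main lipid carrier of the brain, was the most abundant of the 4. It stood at 45325 CPM in knockout cells of the cluster, 62108 CPM in heterozygous, 46630 CPM in wild-type cuprizone and 31921 CPM in control-diet cells. The other microglia had 14611, 20244, 12643 and 4441 CPM in that order. Apoe marked the cluster less sharply than the other 3 did: cluster 08 had 47681 CPM in the heterozygous library, and the border macrophage-like cluster 07 had 48143 CPM there.

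**Figure D1:**
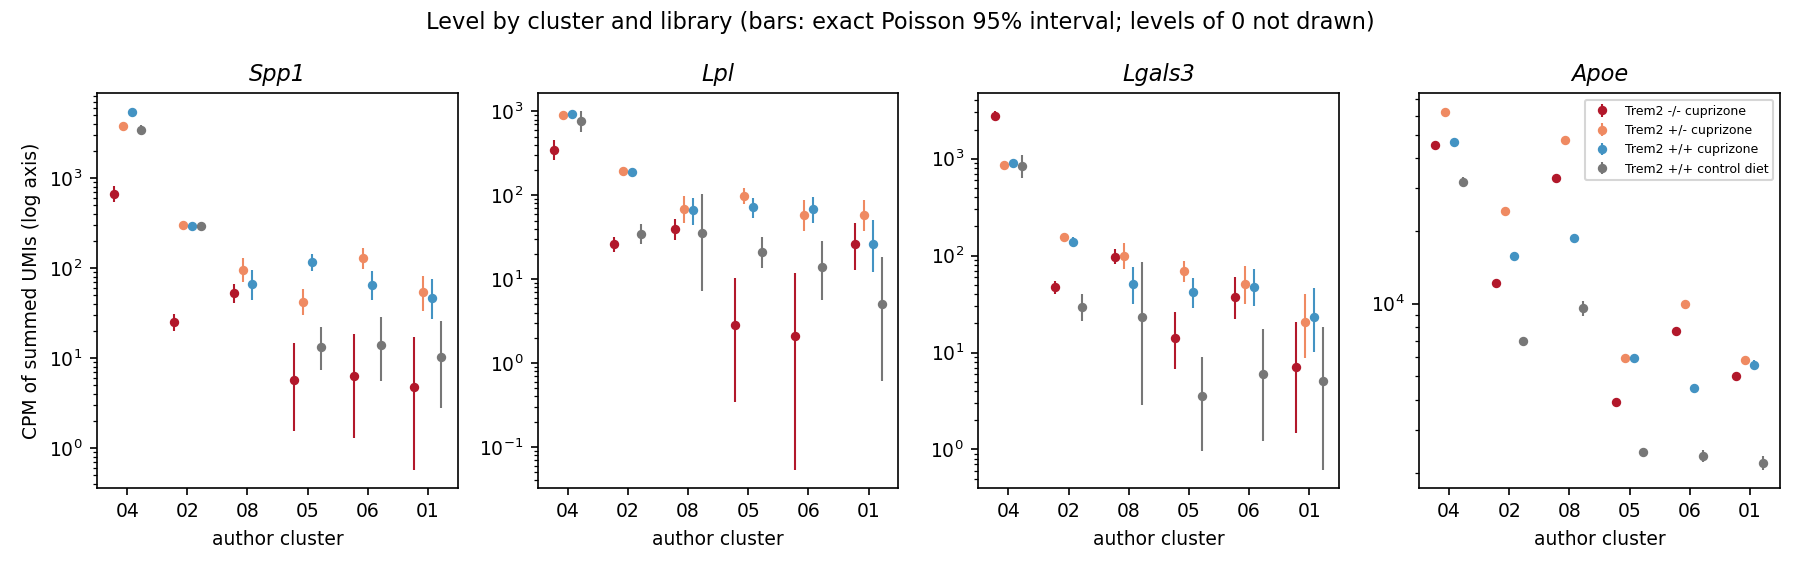
Level of the 4 marker genes in cluster 04 and the other 5 microglial clusters. The vertical axes give CPM of summed UMIs on log scales, colours the 4 libraries from Trem2 -/- cuprizone on the left to Trem2 +/+ control diet on the right, and bars exact Poisson 95% intervals. Cluster 04 holds the highest point of each library in every panel, with Spp1 at 666 to 5335 CPM.

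For the whole programme, a gene was called higher or lower by a rule of size: at least 50 UMIs in each of the heterozygous and wild-type cuprizone libraries, a ratio of cluster 04 to the other microglia of at least 1.5-fold, and an interval excluding 1, in both libraries. Of 7564 genes measured, 204 were higher, 2.70% of those tested, and 656 were lower, 8.67%. The median log2 ratio over all genes was -0.26. Scaling by TMM (trimmed mean of M values) factors moved that median by 0.21, to -0.04, and gave 335 higher and 233 lower genes. All 204 higher genes and all 233 of those lower genes were in both calls, so the size of the lower set depends on the scaling and the higher set does not shrink with it. The authors' clustering used many of the same genes, so these ratios describe the cluster and test nothing. Among the 4567 measured genes that the clustering did not use, 65 were higher and 386 were lower, without TMM factors. The higher ones were a smaller share than the 2.70% of all measured genes, and the lower ones a share close to the 8.67%.

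Behind Spp1, whose ratio was 18.8-fold [17.5 to 20.1] in heterozygous mice and 26.6-fold [24.9 to 28.5] in wild-type mice, the highest genes fell into a few kinds. Several handle lipids. Ch25h, which makes the oxysterol 25-hydroxycholesterol, had 92.6 CPM in the cluster against 11.3 CPM in the other microglia of heterozygous mice, and 103.8 against 12.4 CPM in wild-type mice. The fatty acid binding protein gene Fabp5 had 271.7 against 48.2 CPM in heterozygous mice, and 271.5 against 24.5 CPM in wild-type mice. Lpl was 6.28-fold [5.74 to 6.87] higher in heterozygous and 6.92-fold [6.29 to 7.61] higher in wild-type mice, and Apoe 3.07-fold [3.04 to 3.10] and 3.69-fold [3.65 to 3.73].

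Other leading genes encode secreted proteins. The growth factor gene Igf1 had 204 against 37.7 CPM in heterozygous mice (5.42-fold) and 155 against 24.5 CPM in wild-type mice (6.32-fold). Cxcl14, a chemokine gene, was 6.85-fold higher in heterozygous and 8.61-fold higher in wild-type mice. Il4i1, a secreted amino acid oxidase, was higher by 5.30-fold and 5.88-fold in the same order, and Fam20c, a kinase of the secretory pathway that phosphorylates secreted proteins, by 4.61-fold and 4.48-fold. Of the 20 leading genes, the ratio of Fabp5 differed most between the libraries, at 5.63-fold in heterozygous and 11.1-fold in wild-type mice.

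A further set encodes surface, lysosomal and cytoskeletal proteins. Cst7, the gene of the cathepsin inhibitor cystatin F, had 905 against 199.8 CPM in heterozygous mice (4.53-fold) and 837 against 182 CPM in wild-type mice (4.59-fold). Itgax, the integrin CD11c, was 4.74-fold higher in heterozygous and 4.36-fold higher in wild-type mice. Cd74, the invariant chain of MHC class II, was 3.67-fold and 3.46-fold higher in that order, and Cybb, the membrane subunit of the phagocyte NADPH oxidase, 4.32-fold and 4.03-fold. The remaining genes named by rank were Capg, Crip1, Fxyd5, Vat1, Cd72 and Anxa5, at 3.23-fold to 4.76-fold in heterozygous and 3.28-fold to 4.92-fold in wild-type mice. Of the 20 genes, Cd74 and Fxyd5 were not used in the authors' clustering.

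**Figure D2:**
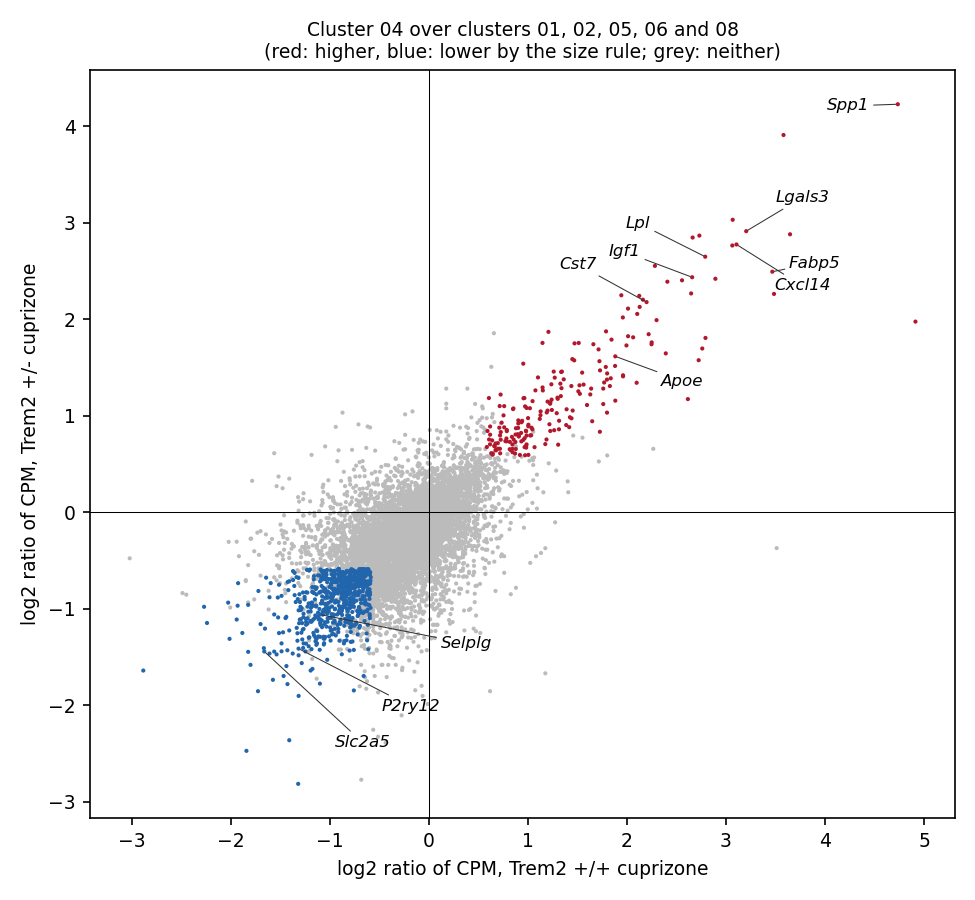
Ratio of cluster 04 to the other microglia for 7564 genes in the 2 libraries that hold most of its cells. The vertical axis gives the log2 ratio of CPM in Trem2 +/- cuprizone cells and the horizontal axis that in Trem2 +/+ cuprizone cells, with the 204 higher genes in red, the 656 lower genes in blue and the rest in grey. Spp1 lies farthest up and P2ry12, Slc2a5 and Selplg lie below 0 on both axes.

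The promoters of 4 of these genes, chosen after the matches were seen, are shown because they hold motifs searched in all promoters: the AP-1 letters TGANTCA, where N is any base, and the PU.1 letters GAGGAAGT. The windows run from 250 bases before to 50 bases after the gene's start, from RefSeq on build GRCm38.p6, 5′ to 3′. The starts are those of RefSeq: the Igf1 window lies inside the gene as GENCODE vM21 annotates it, with a start at position 87858265 of chromosome 10. Capitals mark GAGGAAGT and the letters TATAAA in Spp1, and TGANTCA in the other 3.
Spp1 (chr5:104434861-104435160, plus strand): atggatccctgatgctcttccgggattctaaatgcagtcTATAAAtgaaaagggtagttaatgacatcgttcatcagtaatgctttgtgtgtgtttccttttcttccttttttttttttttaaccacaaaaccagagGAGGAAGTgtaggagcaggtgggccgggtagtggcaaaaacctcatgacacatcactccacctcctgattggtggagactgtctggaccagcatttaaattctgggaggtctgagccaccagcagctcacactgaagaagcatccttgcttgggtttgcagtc
Cst7 (chr2:150570165-150570464, plus strand): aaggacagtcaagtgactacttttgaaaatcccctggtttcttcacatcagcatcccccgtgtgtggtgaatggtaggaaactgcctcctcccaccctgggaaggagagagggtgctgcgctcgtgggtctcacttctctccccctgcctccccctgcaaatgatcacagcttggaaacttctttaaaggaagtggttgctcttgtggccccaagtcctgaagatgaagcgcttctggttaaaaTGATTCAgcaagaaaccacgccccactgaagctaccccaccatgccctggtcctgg
Itgax (chr7:128129300-128129599, plus strand): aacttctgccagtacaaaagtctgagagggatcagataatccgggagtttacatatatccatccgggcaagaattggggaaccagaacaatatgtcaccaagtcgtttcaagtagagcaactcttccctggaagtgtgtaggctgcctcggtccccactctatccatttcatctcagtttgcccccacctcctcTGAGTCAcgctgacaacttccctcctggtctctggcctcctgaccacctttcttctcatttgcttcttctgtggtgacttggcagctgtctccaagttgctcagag
Igf1 (chr10:87860861-87861160, plus strand): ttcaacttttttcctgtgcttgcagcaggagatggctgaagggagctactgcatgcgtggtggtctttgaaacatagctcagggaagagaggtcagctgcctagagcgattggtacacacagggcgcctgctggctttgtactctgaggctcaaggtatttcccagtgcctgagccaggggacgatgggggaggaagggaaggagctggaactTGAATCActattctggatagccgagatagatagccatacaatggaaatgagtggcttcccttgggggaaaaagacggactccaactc
Both strands were searched, and 9846 of the 12800 genes in the table matched a promoter. TGANTCA was present in 19 of the 163 higher genes with a promoter (11.7%), in 27 of 521 lower genes (5.18%) and in 357 of all 6034 measured genes with one (5.92%). GAGGAAGT was present in 12 of the 163 (7.36%), in 29 of the lower genes (5.57%) and in 257 of all 6034 (4.26%). TATAAA was present in 27 of the higher genes (16.6%), in 50 of the lower (9.60%) and in 515 of all (8.54%). Among the 17 of 20 leading genes with a promoter, Cst7, Cybb, Itgax and Igf1 held TGANTCA, and Cd72, Spp1 and Il4i1 held GAGGAAGT. The other letters searched were CACGTG, in 9.82% of the higher genes and 13.2% of all, TGACGTCA, in 4.91% and 3.70%, and GGGCGG, in 65.0% and 71.3%. None of these motifs contains another, and a match describes the letters only.

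On the lower side stood genes of the homeostatic state. P2ry12, an ADP receptor of resting microglia, had 988 CPM in the cluster against 2628 CPM in the other microglia of heterozygous mice (2.66-fold lower [2.53 to 2.80]), and 1036 against 2578 CPM in wild-type mice (2.49-fold lower [2.36 to 2.63]). Tmem119, a surface marker of microglia, had 787 against 1866 CPM and 827 against 2016 CPM in the same order. The fructose transporter gene Slc2a5 was 2.71-fold lower in heterozygous and 3.16-fold lower in wild-type mice. Cx3cr1, the receptor for the neuronal chemokine fractalkine, was 2.09-fold and 1.95-fold lower. Others named by rank were Adgrg1, P2ry13, Selplg, Rhob, Slc16a6, Zfhx3 and Crybb1, at 2.01-fold to 2.95-fold lower in heterozygous and 2.08-fold to 2.43-fold lower in wild-type mice. The transcripts remained present in the cluster: their lowest level was 63.4 CPM, for Slc16a6 in heterozygous mice.

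Grouped by function, 24 of 32 homeostatic genes were lower and 0 were higher (16 lower with TMM factors), with a median log2 ratio of -0.94. Sall1, a transcription factor that maintains microglial identity, had 60.1 against 151 CPM in heterozygous and 71.1 against 141 CPM in wild-type mice. Csf1r, the receptor on which microglia depend for survival, was lower by less, at 0.613 and 0.665 times the level of the other microglia.

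Of 8 genes known for the TREM2-independent step of disease-associated microglia, 5 were higher and 0 lower, with a median of 0.82. They were Apoe, the lysozyme gene Lyz2, the cathepsin genes Ctsb and Ctsd, and the ferritin heavy chain gene Fth1. Lyz2 had 4608 against 1532 CPM in heterozygous and 3923 against 1436 CPM in wild-type mice. Tyrobp, B2m and Timp2 did not pass, at 1.38-fold to 1.48-fold in heterozygous and 1.25-fold to 1.40-fold in wild-type mice.

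Of 15 genes known for the TREM2-dependent step, 12 were higher and 0 lower, with a median of 1.65. Beside Spp1, Lpl, Cst7 and Itgax they held Gpnmb, a membrane glycoprotein of lipid-laden macrophages, Ank, Ccl6, the phagocytic receptor Axl, the tetraspanin genes Cd63 and Cd9, Csf1 and Ctsl. Axl had 203 against 71.3 CPM in heterozygous and 241 against 69.8 CPM in wild-type mice. Gpnmb had 125 against 17.0 CPM and 86.7 against 6.92 CPM in the same order, but 1 wild-type cell held 52 of its 122 UMIs, 42.6%. A list of 25 further genes reported in such cells had 21 higher and 0 lower, with a median of 2.18. Within it Mmp12, a macrophage protease gene, had 56.1 against 14.2 CPM in heterozygous and 233.9 against 7.76 CPM in wild-type mice, where 1 cell held 131 of 329 UMIs.

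Lipid genes were split by kind. Of 18 genes of cholesterol transport and LXR targets, 7 were higher and 1, Mylip, was lower, with a median of 0.46 (9 higher and 0 lower with TMM factors). Besides Apoe and Ch25h the higher ones were Apoc1, Apoc4, Myo5a, Soat1, which esterifies cholesterol for storage, and Lipa, the acid lipase of the lysosome. The cholesterol exporter genes Abca1 and Abcg1 did not pass: Abca1 had 78.6 against 87.0 CPM in heterozygous and 83.9 against 79.1 CPM in wild-type mice. Of 15 genes of lipid droplets and fatty acids, Fabp5, Lpl, Fabp3, Plin2 and Plin3 were higher and 0 lower, yet the list's median was 0.02. Plin2, which coats lipid droplets, had 88.1 against 32.3 CPM in heterozygous and 89.6 against 30.6 CPM in wild-type mice. None of 11 genes of cholesterol synthesis and uptake passed the rule.

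Of 34 lysosomal genes, 10 were higher and 1 lower, with a median of 0.31 (14 higher and 0 lower with TMM factors). The higher ones were Gla, Cst7, Cd63, Cstb, Ctsb, Ctsd, Cd68, Ctsz, Ctsl and Gusb. Ctsb had 6835 against 3234 CPM in heterozygous and 6207 against 3060 CPM in wild-type mice. Cst3, the cathepsin inhibitor cystatin C, was the lower one, with 34576 against 58494 CPM and 35445 against 60115 CPM in that order. The summed CPM of the list, of which Cst3 is a large share, was 0.938 and 0.895 times that of the other microglia. None of 15 genes of the vacuolar proton pump passed (2 were higher with TMM factors).

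Among 14 phagocytosis receptors Axl was higher, and Mertk and the complement receptor gene Itgam were lower (3 higher and 1 lower with TMM factors). Mertk had 98.2 against 195 CPM in heterozygous and 91.7 against 169 CPM in wild-type mice, the opposite direction from Axl, a receptor of the same family. The median of that list was -0.21, and 0.01 with TMM factors. Of 9 signalling partners of TREM2, the adaptor gene Hcst was higher and the kinase gene Syk, the phosphatase gene Inpp5d and the inhibitory receptor gene Cd33 were lower (2 higher and 1 lower with TMM factors).

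Genes of antigen presentation differed by class. Of 7 MHC class II genes, Cd74, H2-Aa, H2-Ab1 and H2-Eb1 were higher and 0 lower, with a median of 1.17. H2-Aa had 423 against 125 CPM in heterozygous and 368 against 129 CPM in wild-type mice. None of 11 MHC class I genes passed. Of 20 interferon response genes Ifi211, Ifi204 and Oas1a were higher and 0 lower (6 higher with TMM factors).

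Of 18 cytokines and chemokines 6 were higher and 0 lower: Cxcl14, Ccl6, Cxcl2, Csf1, Cxcl16 and Tnf. Of 22 genes of matrix, adhesion and proteolysis 10 were higher and 1 lower (11 and 0 with TMM factors). Beside Spp1, Mmp12, Lgals3, Itgax and Cd9 these were Postn, Plau, its receptor gene Plaur, Lgals1 and Lgals3bp, and the lower one was Sparc. Of 13 annexin, vimentin and S100 genes 7 were higher and 0 lower, among them Vim, with 83.1 against 15.5 CPM in heterozygous and 81.0 against 10.9 CPM in wild-type mice. Complement genes numbered 10, with Itgax higher and Itgam lower (1 higher and 0 lower with TMM factors).

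Of 15 glycolysis genes 9 were higher and 1 lower, with a median of 0.80 (12 higher and 0 lower with TMM factors). Pkm, which makes pyruvate, had 736 against 332 CPM in heterozygous and 782 against 341 CPM in wild-type mice. Tpi1, Pgk1, Aldoa, Ldha, Gapdh, Gpi1, Eno1 and the lactate exporter gene Slc16a3 were also higher, and the hexokinase gene Hk2 was lower, with 199 against 353 CPM and 213 against 345 CPM in that order. In contrast, 1 of 24 nuclear genes of the respiratory chain was higher, Cox6a2, and 0 of 12 mitochondrially encoded transcripts passed. A list of 23 genes held iron and antioxidant genes and subunits of the phagocyte NADPH oxidase. Of these 4 were higher, the oxidase gene Cybb, Prdx1, Mt2 and Fth1. The iron exporter gene Slc40a1 and the oxidase gene Ncf1, 2 in all, were lower (9 higher and 0 lower with TMM factors).

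Of 21 immediate early and dissociation genes 8 were lower and 1 higher, and with TMM factors 1 was lower and 1 higher. Of 14 heat shock genes Hspa1b was lower. Of 52 ribosomal protein genes Rps2 was higher, and of 12 cell cycle genes Cks1b was higher. Of 22 transcription factor genes 4 were lower (2 with TMM factors), Sall1, Maf, Mef2a and Etv5, and Bhlhe40 was higher, with 22.4 against 6.92 CPM in heterozygous and 25.6 against 3.77 CPM in wild-type mice.

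**Figure D3:**
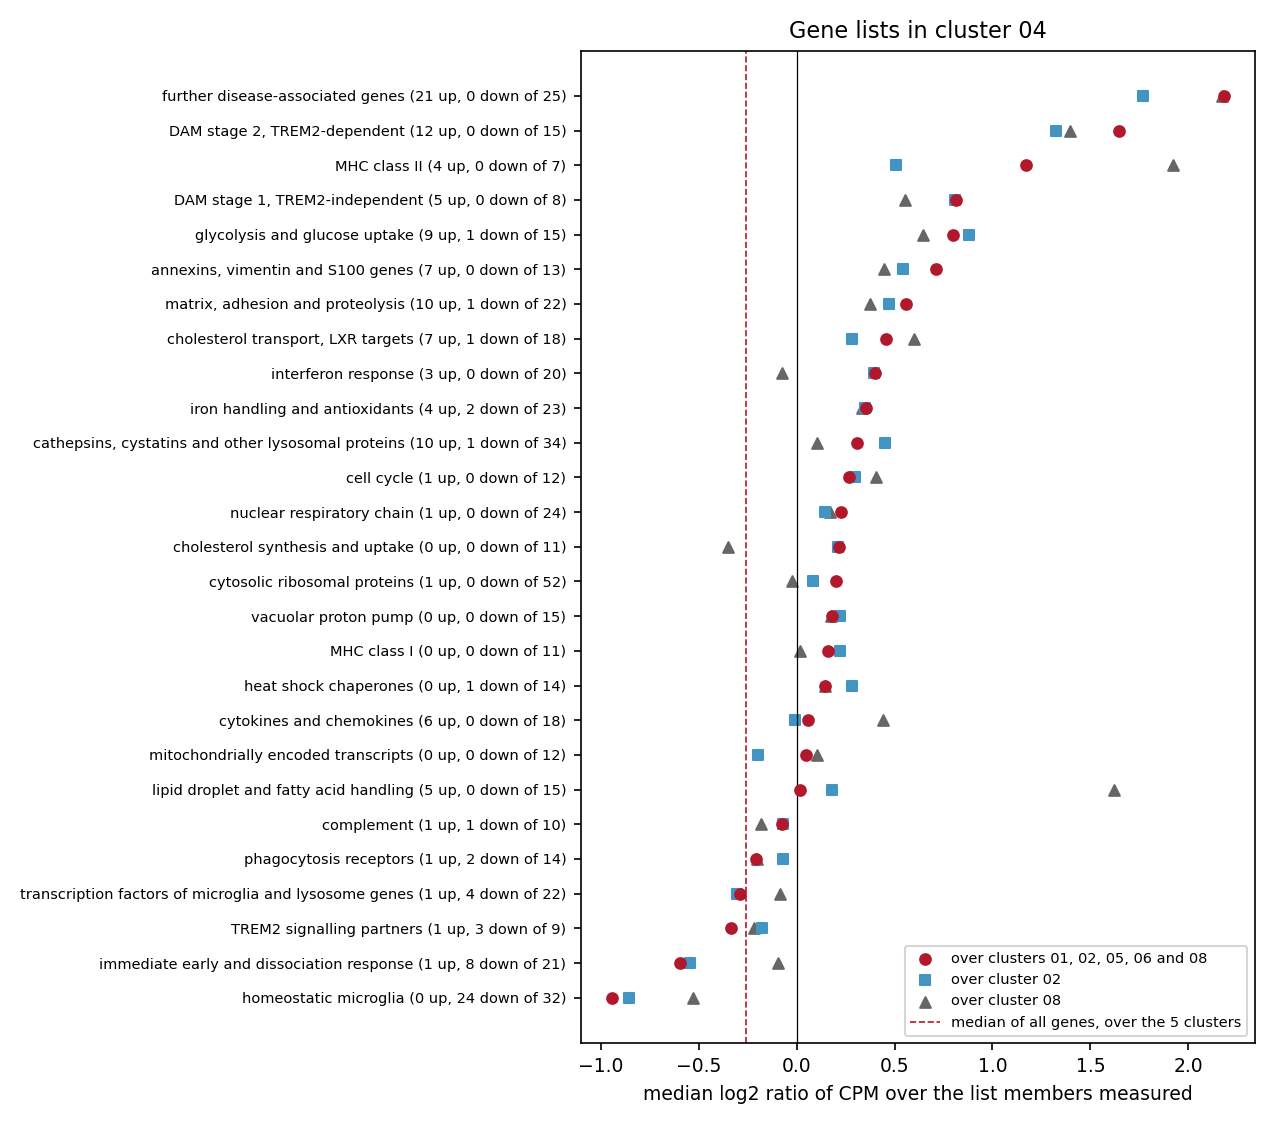
Gene lists in cluster 04. The horizontal axis gives the median log2 ratio of CPM over the members of a list that were measured, circles over the other microglia, squares over cluster 02 and triangles over cluster 08, and the labels give how many members were higher and lower than in the other microglia. The lists of the TREM2-dependent step, at 1.65, and of further disease-associated genes, at 2.18, lie at the top, MHC class II, at 1.17, lies above the TREM2-independent step, at 0.82, and homeostatic genes at the bottom, at -0.94, against -0.26 for all genes (dashed line).

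Markers of other cell types were also compared. Of 13 microglia markers 8 were lower and 0 higher (6 lower with TMM factors). Their summed share of a cell's UMIs had a median of 2.68% in heterozygous and 2.58% in wild-type cells of the cluster, against 3.83% and 3.92% in the other microglia. One cell of the cluster lay under 1% in each of the knockout, heterozygous and wild-type cuprizone libraries, and none of the other microglia did. Of 8 measured markers of border macrophages, Cbr2 and Ms4a7 were higher and 0 lower. Mrc1 had 26.9 against 30.4 CPM in heterozygous and 38.4 against 21.8 CPM in wild-type mice. The whole list summed to 372 CPM in the cluster and 278 CPM in the other microglia of heterozygous mice. In wild-type mice the sums were 397 and 255 CPM. Neutrophil markers summed to 2373 CPM in the cluster and 1558 CPM in the other microglia of heterozygous mice, and to 50.5 and 49.5 CPM in wild-type mice. In heterozygous mice 2 cells of the cluster held 884 and 706 of its 1695 UMIs of S100a8. The part of these other cell types in the cluster's levels was not tested.

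Across the 7564 genes, log2 levels in cluster 04 correlated most with those in cluster 02, with Pearson r of 0.955 in heterozygous and 0.951 in wild-type mice. Cluster 08 came next at 0.933 and 0.925, and cluster 01 was lowest at 0.877 and 0.867. These points share their library, and clusters differ in depth. Against cluster 02 alone, 182 of 6370 genes were higher, 2.86% of those tested, and 675 were lower, 10.6%. With TMM factors these numbers were 328 and 284.

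The leading genes over cluster 02 were Spp1, at 12.3-fold in heterozygous and 18.5-fold in wild-type mice, then Lgals3, Lpl, Il4i1, Fabp5, Cst7, Igf1 and Capg. Those lowest against it were Zfhx3, Cx3cr1, Pmepa1, Pde3b, Nuak1, Sall1, Rhob and Marcks, at 0.329 to 0.480 times its level in heterozygous and 0.352 to 0.490 times in wild-type mice. Of the 204 genes higher than in all other microglia, 193 could be measured against cluster 02 and 155 were also higher there. Of the glycolysis genes, 12 of 14 measured were higher than in cluster 02 and 1 was lower.

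Against cluster 08, 106 of 3798 genes were higher, 2.79% of those tested, and 60 were lower, 1.58%. With TMM factors these numbers were 137 and 22. Spp1 was 38.9-fold higher in heterozygous and 81.0-fold higher in wild-type mice, with 3728 against 95.7 CPM and 5335 against 65.9 CPM. Lpl was 13.04-fold and 14.31-fold higher. The MHC class II gene H2-Aa had 423 against 66.8 CPM in heterozygous and 368 against 46.1 CPM in wild-type mice. Lgals3, Fabp5, Cd74, Igf1 and H2-Eb1 completed the leading genes, and P2ry12, P2ry13, Cst3, Selenop, Selplg, Tmem119, Serinc3 and Crybb1 were the lowest ones, at 0.510 to 0.652 times the level of cluster 08 in heterozygous and 0.492 to 0.603 times in wild-type mice.

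Apoe did not pass this comparison. It had 62108 CPM in cluster 04 against 47681 CPM in cluster 08 of heterozygous mice, and 46630 against 18650 CPM in wild-type mice. Of the homeostatic genes 10 of 32 were lower than in cluster 08, against 21 of 32 lower than in cluster 02. Of all genes tested 1.58% were lower than in cluster 08 and 10.6% lower than in cluster 02. In the heterozygous and wild-type cuprizone libraries cluster 08 held 904455 UMIs and cluster 02 held 5352618. Of the 204 genes higher than in all other microglia, 155 could be measured against cluster 08 and 90 were higher there. These comparisons share the cells of cluster 04, and their counts of genes are not at like depth.

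Inside the cluster, cells were compared after thinning each to 4553 UMIs, which left 137 heterozygous and 107 wild-type cells and set aside 13 and 15 shallower ones. The variance of a gene over its mean, near 1 for counting noise alone, had a median of 1.16 over 1027 genes in heterozygous and 1.17 in wild-type cells. By this measure Apoe, with 145 and 256, and Spp1, with 107.2 and 110.5, varied most. For genes that vary beyond counting noise the measure grows with the level, so it favours abundant genes. The mean thinned count was 308.5 and 259.8 for Apoe, against 18.2 and 25.4 for Spp1. Cd74, Lyz2, Actb, Ccl4, Cst3, Ctsd, Malat1 and H2-Ab1 followed. The cluster's most variable genes thus included 2 of its own markers.

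Spp1 was concentrated in few cells. Its thinned count had a median of 2 UMIs and a highest of 275 in heterozygous cells, and a median of 4 and a highest of 237 in wild-type cells. Without thinning, it took up a median of 0.0503% of a cell's UMIs and at most 5.92% in heterozygous mice, and a median of 0.0794% and at most 5.12% in wild-type mice. The tenth of cells with most Spp1 held 66.0% of its UMIs in heterozygous and 65.4% in wild-type mice, against 23.03% and 25.21% for Apoe, 35.3% and 36.2% for Lpl and 37.1% and 40.5% for Lgals3. At 10 or more thinned Spp1 UMIs were 1 of 12 knockout, 37 of 137 heterozygous, 40 of 107 wild-type cuprizone and 2 of 5 control-diet cells. In the other microglia 3 of 461, 5 of 337, 5 of 333 and 1 of 240 cells were, in the same order of libraries, and 12 of these 14 belonged to cluster 02.

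**Figure D4:**
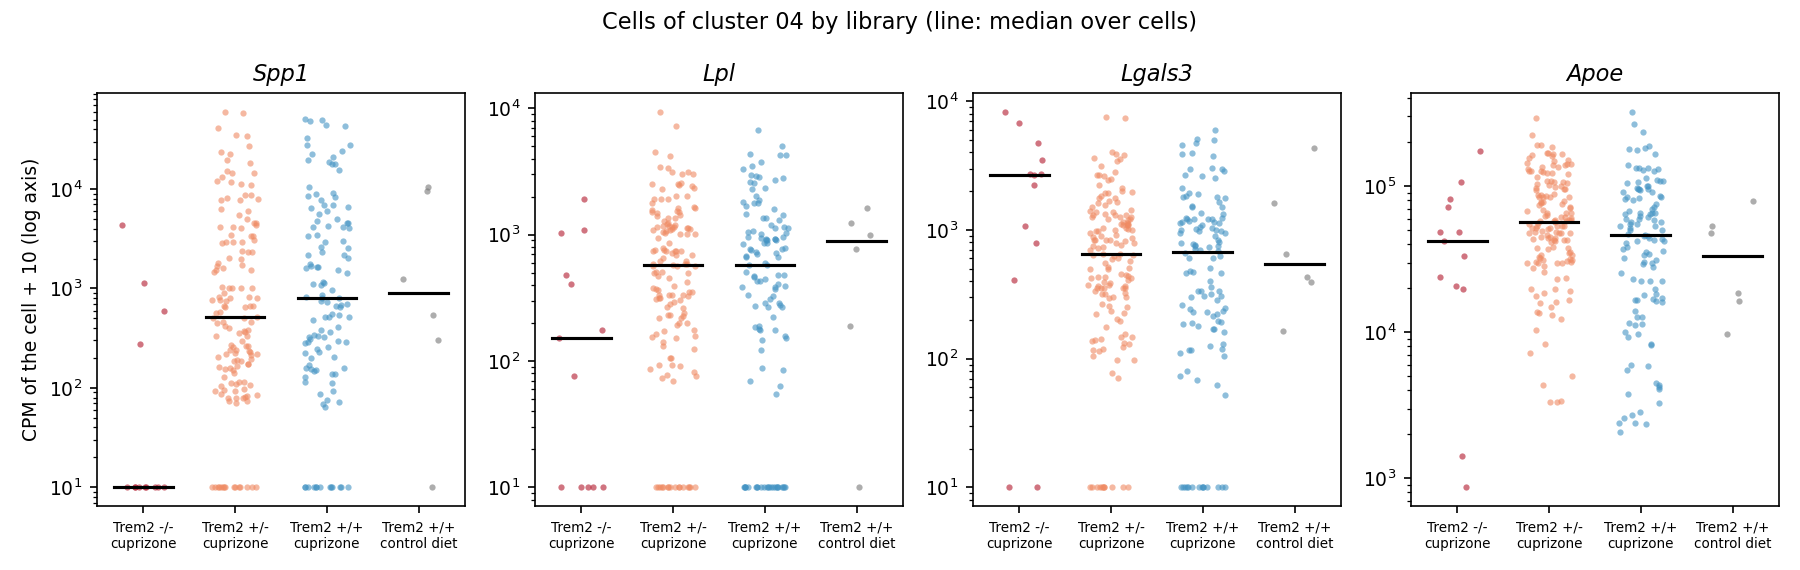
Marker genes in each cell of cluster 04. Each point is 1 cell, the vertical axes give its CPM plus 10 on log scales, the libraries run from Trem2 -/- cuprizone on the left to Trem2 +/+ control diet on the right, and lines are medians over cells. Spp1 is at 0 in 9 of 13 knockout cells, and Lgals3 is high in most of them.

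Apoe took up a median of 5.71% of all UMIs of a cell in heterozygous and 4.62% in wild-type mice, and reached 29.3% and 32.1%. Across cells, its thinned count correlated most with that of Lyz2, with Spearman rho of 0.55 in heterozygous and 0.67 in wild-type mice. It correlated negatively with Cst3, at -0.53 and -0.59, and with P2ry12, at -0.41 and -0.37. Lpl did not follow Apoe, with rho of -0.08 in both libraries. The genes most like Lpl were Cd9, at 0.56 and 0.50, the chemokine gene Ccl6, at 0.45 and 0.53, and Capg, at 0.38 and 0.61. These correlations are over 137 and 107 cells that share a library and, after thinning, a fixed total, so an abundant gene such as Apoe leaves fewer UMIs for others.

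Other genes formed pairs of their own. The chemokine genes Ccl4 and Ccl3 correlated at 0.70 in heterozygous and 0.76 in wild-type mice. Cd74 correlated with H2-Ab1 at 0.75 and 0.58 and with H2-Eb1 at 0.64 and 0.58. Spp1 correlated with Ctsd at 0.34 and 0.46, and with Cst7 at 0.34 and 0.45.

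**Figure D5:**
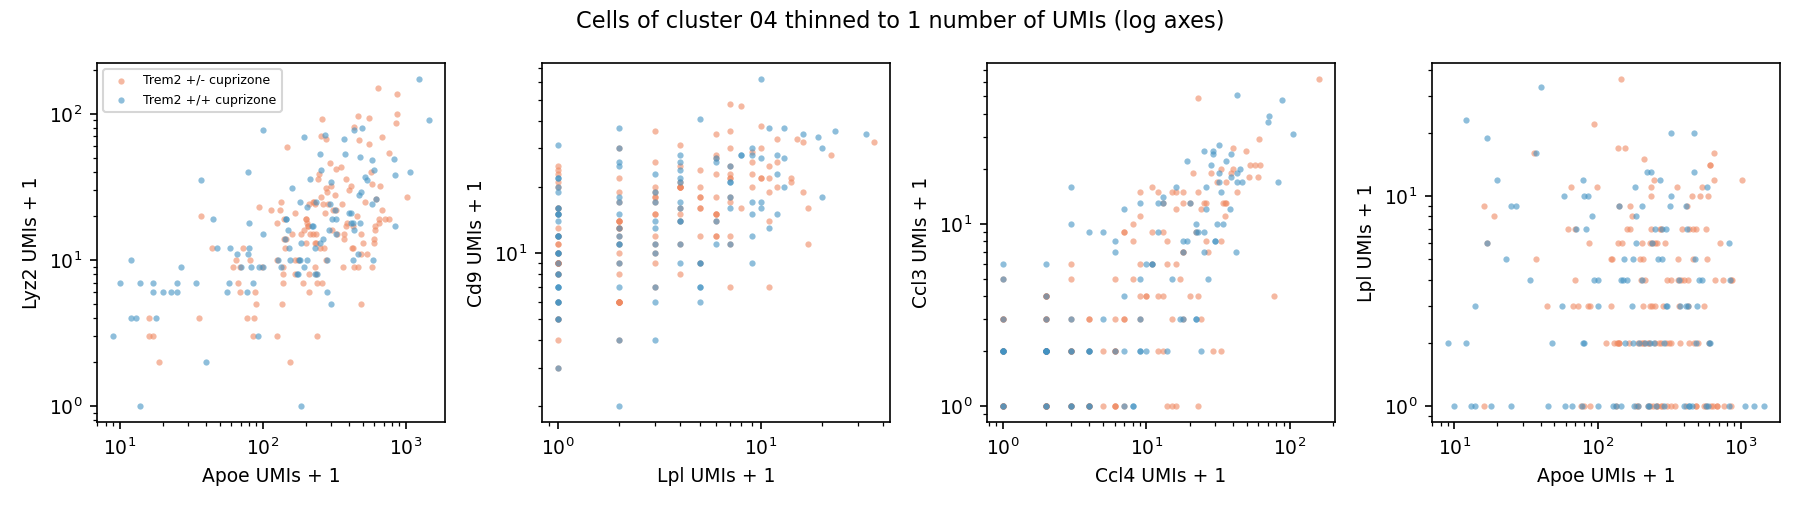
Thinned UMIs of pairs of genes in the cells of cluster 04, plus 1, on log axes. Each point is 1 cell, orange for Trem2 +/- cuprizone (137 cells) and blue for Trem2 +/+ cuprizone (107 cells). Apoe and Lyz2, Lpl and Cd9, and Ccl4 and Ccl3 move together, with Spearman rho of 0.50 to 0.76, and Apoe and Lpl do not, at -0.08.

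A list was called high in a cell when its thinned UMIs lay above the 95th percentile of the other microglia of the same library. MHC class II was high in 40 of 137 heterozygous cells, 29.2% [21.7 to 37.6], and in 19 of 107 wild-type cells, 17.8% [11.04 to 26.33], against 4.45% and 5.11% of the other microglia. In the high cells of heterozygous mice Cd74 had a median of 30.5 thinned UMIs, against 2 in the remaining cells of the cluster, and in wild-type mice 57 against 3. Apoe had a median of 363 against 231 thinned UMIs in heterozygous and 415 against 178.5 in wild-type mice, and Lyz2 20.5 against 14 and 39 against 10.5. Those high cells had fewer UMIs, with a median of 10014 against 11960 in heterozygous and 6918 against 13452 in wild-type mice. Of them 2 and 1 were also high for border macrophage markers. Single markers of that list moved with the high cells in wild-type mice: Ms4a7 was counted in 12 of 19 high cells against 14 of 88 others, Pf4 in 7 against 20, and Mrc1 in 4 against 11. In heterozygous mice Ms4a7 was counted in 14 of 40 high cells against 22 of 97 others, Pf4 in 4 against 18 and Mrc1 in 1 against 8. The part of depth and of border macrophages in this difference was not tested. With the limit at the 99th percentile, MHC class II was high in 14.6% of heterozygous and 14.9% of wild-type cells.

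Glycolysis genes were high in 55 of 137 heterozygous cells, 40.1%, and in 52 of 107 wild-type cells, 48.6%, against 4.15% and 4.20% of the other microglia. With the limit at the 99th percentile the shares were 19.7% and 17.8%, in the opposite order. Interferon response genes were high in 8 and 10 cells, cell cycle genes in 8 and 6, cytokines and chemokines in 11 and 11, and border macrophage markers in 10 and 8. The matching shares were 5.84% and 9.35% for interferon, 5.84% and 5.61% for the cell cycle, 8.03% and 10.3% for cytokines and 7.30% and 7.48% for border macrophage markers. In the other microglia they were 5.045% and 5.105%, 3.56% and 5.105%, 4.45% and 5.105%, and 5.045% and 4.805%, in that order. The intervals of the cluster's shares include these values, except for cytokines in wild-type mice [5.245 to 17.65]. Ccl5, a chemokine gene in the list of T or NK cell markers, had 269 of its 303 wild-type UMIs in 1 cell of the cluster. Only 3 of the 11 markers of that list are in the deposited table. These summed to the same 303 UMIs, so of the 3 only Ccl5 was counted in wild-type cuprizone cells of the cluster. The rest of the list could not be examined.

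The 2 libraries that hold most of the cluster were also set against each other. Heterozygous over wild-type cells of cluster 04 gave 74 of 5387 genes at least 1.5-fold higher with an interval excluding 1, 1.37% of those tested, and 131 lower, 2.43%. In the other microglia 34 of these 5387 genes were higher and 21 lower, and 11 and 10 of them were among the genes called in the cluster. Heterozygous and wild-type cells held 1781655 and 1406878 UMIs in the cluster, and 4770948 and 4768642 UMIs in the other microglia. Counting noise therefore weighs more on the numbers of genes called in the cluster, and the numbers are not at like depth. Of the 74, 7 rested mostly on 1 cell. The largest ratios were those of the neutrophil markers S100a8, Ltf, Ngp, Camp and S100a9, at 41.9 to 63.7. Those markers were also higher in the other microglia of the heterozygous library, at 14.3 to 37.5 times the wild-type level. Trem2 had a ratio of 0.614, as in the other microglia at 0.590. Apoe had a ratio of 1.33 in the cluster and 1.60 in the other microglia. Spp1 had 0.699 and 0.992 in that order, Lpl 0.954 and 1.05, Lgals3 0.955 and 1.17, and Cst7 1.08 and 1.10. Among the lower genes were the chemokine gene Ccl12, at 0.299, and the interferon-induced gene Isg15, at 0.327, with 0.571 and 0.711 in the other microglia. A single wild-type cell held 89 of the UMIs of Isg15, and without it the ratio was 0.573. Without the wild-type cell that held 200 UMIs of Ccl12, its ratio was 0.388.

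The 13 knockout cells were compared by the leading genes, most of which the clustering had used. Compared with the other microglia of their own library, by a ratio of at least 1.5 with an interval excluding 1 and no minimum of UMIs, 16 of the 20 leading higher genes were higher and 0 lower, and 12 of the 12 leading lower genes were lower. Cst7, Itgax, Ch25h and Il4i1 were the exceptions. Cst7 had 189 CPM in the knockout cells against 210.5 CPM in their other microglia, and it was 4.42-fold [3.02 to 6.74] lower than in wild-type cuprizone cells of the cluster. Itgax was counted only 2 times in the 13 cells and Ch25h and Il4i1 1 time each. Some genes that passed also rested on few counts: Cxcl14 had 3 UMIs and Fam20c 4 UMIs, each in 2 cells. The share of all genes that pass this looser rule is not given here.

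Spp1 was at 0 in 9 of the 13 cells, and 1 cell held 66 of its 95 UMIs. After thinning, 3 of 12 of these cells (25%) had a UMI of Spp1, against 5.4% of the other microglia of that library. Its level was 25.9-fold [19.9 to 33.5] that of those other microglia, yet 8.01-fold [6.54 to 9.91] lower than in wild-type cuprizone cells of the cluster. Lpl was 2.69-fold [2.03 to 3.65] lower than in those wild-type cells, and Apoe differed little, at 0.972 times their level [0.947 to 0.997].

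Lgals3 went the other way. It had 0 UMIs in 2 of the 13 knockout cells, 6 to 53 in 10 and 99 in 1, and its level was 3.08-fold [2.75 to 3.45] that of wild-type cuprizone cells of the cluster. Lyz2 was 1.59-fold and Ctsb 1.55-fold higher than in those cells. Gpnmb had 27 of its 42 UMIs in 1 cell. Genes of the TREM2-dependent step summed to 11123 CPM in knockout cells, 1.65-fold their other microglia, against 2.78-fold in heterozygous, 3.004-fold in wild-type cuprizone and 2.99-fold in control-diet cells. Spp1 alone made up 666 CPM of that sum in knockout cells. It made up 3728 of 16460 CPM in heterozygous, 5335 of 17937 CPM in wild-type cuprizone and 3387 of 15557 CPM in control-diet cells. The part of Spp1 in the difference between libraries was not tested. Genes of the TREM2-independent step were at 2.13-fold in knockout cells, 2.29-fold in both heterozygous and wild-type cuprizone cells and 2.67-fold in control-diet cells. Of the lists shown in the plot of medians, iron, antioxidant and oxidase genes stood at 2.64-fold in knockout cells. Their ratios were 1.43-fold in heterozygous, 1.53-fold in wild-type cuprizone and 1.49-fold in control-diet cells. These genes were not the only list higher in knockout cells. MHC class II genes stood at 4.33-fold in knockout cells, against 2.515-fold, 2.31-fold and 1.41-fold in the same order. Interferon response genes stood at 3.68-fold, against 1.18-fold, 1.58-fold and 0.955-fold.

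Not all 13 knockout cells were alike. One cell of 12072 UMIs held 65 of the 66 UMIs of monocyte markers, 99 UMIs of Lgals3 and 253 UMIs of interferon response genes. Another, of 12716 UMIs, held 167 interferon UMIs and 18 of Apoe. Interferon genes summed to 4149 CPM in all 13 cells and to 1459 CPM without those 2, against 1129 CPM in their other microglia. Without the cell with monocyte markers, Spp1 was 727 CPM, Lpl 283 CPM, Lgals3 2289 CPM and Apoe 47317 CPM. Iron, antioxidant and oxidase genes then summed to 43420 CPM, against 52649 CPM in all 13 cells, and MHC class II genes to 3445 against 4093 CPM. Border macrophage markers summed to 687 CPM in all 13 cells, against 175 CPM in their other microglia, and 1 of the 13 held 50 of the 98 UMIs. A cell of 7003 UMIs had 6 UMIs of Apoe, 0 of Spp1, Lpl and Lgals3, and 13 of P2ry12 and 15 of Tmem119.

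The 6 control-diet cells also held most of the leading genes, unevenly among the cells. Their Spp1 counts were 2, 100, 0, 107, 16 and 6 UMIs in cells of 3726, 9559, 10467, 11188, 12925 and 20334 UMIs, so 2 cells held most of it. Apoe had 200, 754, 102, 532, 211 and 378 UMIs in the same cells, Lpl 6, 0, 8, 2, 16 and 20, and Lgals3 16, 4, 4, 18, 2 and 13. The cells with most Lpl were not those with most Spp1. Compared with their own other microglia, 16 of the 20 leading higher genes were higher, with Ch25h, Il4i1, Cybb and Cd72 the exceptions, and 8 of the 12 leading lower genes were lower. Of those that passed as higher, Igf1 and Vat1 had 4 UMIs each, and the share of all genes that pass is not given here.

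Apoe in control-diet cells of the cluster, 31921 CPM, was 7.19-fold [6.87 to 7.52] that of their other microglia, which had 4441 CPM. In the wild-type cuprizone library the ratio was 3.69-fold, over other microglia at 12643 CPM. In wild-type mice Cd74 was 2431 CPM in cuprizone cells of the cluster and 777 CPM in control-diet cells. Igf1 was 155 and 58.7 CPM, the second from 4 UMIs. Itgax was 112 CPM in cuprizone cells and 220 CPM in control-diet cells, where it was present in 3 of the 6 cells. One of the control-diet cells with most Spp1 held 44 of the 55 UMIs of border macrophage markers and 11 UMIs of the dendritic cell marker list.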

How the data were processed

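The deposited file holds UMI counts for every gene in every cell. Per the submitters' processing notes, Cell Ranger 2.1.1 and build mm10 were used. The gene annotation and the settings of the clustering are not stated in the sources used. The deposited table holds 12800 genes, each with a UMI in at least 8 cells, and 3023 cells. Cells were assigned to libraries and to 8 clusters by the authors' deposited table. The authors' table of genes marks 4895 genes as used in the clustering.

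UMIs were summed per library and cluster and scaled to CPM. Ratios have exact conditional binomial (Clopper-Pearson) 95% intervals, levels exact Poisson ones and shares exact binomial ones, with a floor of 3 UMIs for a sum of 0. The value of a gene over both libraries is the mean of its log2 ratios. Genes with at least 200 UMIs were ranked by the bound of their interval closest to 1, and the 20 higher and 12 lower ones farthest from 1 are named, as are 8 in each direction against clusters 02 and 08, the 10 of highest variance over mean, the given markers and members of the lists. Gene models were counted and not named. Some genes that the rule selects are not reported here. The members, the lists and the rules were chosen with earlier results of these data known. The comparison of heterozygous with wild-type cells was added after seeing the values. Correlations between clusters are over log2(CPM + 1). Thinning drew UMIs without replacement to the 10th percentile of the cluster's depth, and its seed was fixed. Doublets were called with Scrublet in scanpy 1.11.5, per library: it marked 20 knockout cells, 2 wild-type cuprizone cells and 0 in the other libraries, none was removed, and an alternative leaves them and the deepest 5% out. TMM factors came from edgeR 4.0.16 in R 4.3.3. The ratio rule was tested on simulated data. The simulated cells of a kind varied by counting alone, so this cannot show how the rule behaves for genes concentrated in few cells. Of the barcodes, 8 occurred in more than 1 library.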

Additional observations from a re-analysis of the deposited data

Results flagged for a closer look

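Mitochondrially encoded transcripts went opposite ways in cluster 04 relative to the other microglia of the same library. Their summed level was 0.858 times that of the other microglia in knockout cells, which number 13, against 1.06 in heterozygous, 1.05 in wild-type cuprizone and 1.19 in control-diet cells. The difference between libraries was not tested.

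The markers of cluster 04 were also present in cluster 07, the border macrophage-like cells that the comparisons leave out, and in wild-type mice at a higher level on cuprizone than on control diet. There Spp1 had 125.6 CPM on cuprizone and 20.3 CPM on control diet, Lgals3 86.81 and 44.4 CPM, and Apoe 42879 and 24333 CPM. In knockout mice on cuprizone cluster 07 had 20.5 CPM of Spp1, 103.3 CPM of Lgals3 and 33286 CPM of Apoe.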

How the results depend on the processing

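No paired analysis was possible because the labels give no replicate numbers and each group has 1 library. Of the 20 and 12 genes named by rank, 18 and 12 passed the rule under all 10 alternatives; Ch25h did not after thinning to 3004 UMIs, nor Cd74 against all other deposited cells. Counts of genes depended on scaling and depth. Higher and lower genes numbered 335 and 233 with TMM factors, 118 and 389 at a minimum of 200 UMIs, and 117 and 307 after thinning. Against cluster 02 they numbered 328 and 284 with TMM factors, chosen after seeing the data, and 88 and 171 after thinning. Against cluster 08 they numbered 57 and 36 after thinning, and 22 were lower with TMM factors. Thinning leaves fewer UMIs and so fewer genes past the minimum. Over the 6 microglial clusters, the heterozygous share was 21.58%. At the 99th percentile, high cells were 14.6% for MHC class II in heterozygous mice, 1.46% and 0.935% for interferon in heterozygous and wild-type mice, 1.46% and 1.87% for cytokines, 19.7% and 17.8% for glycolysis, and in wild-type mice 2.80% for border macrophage markers and 0 for the cell cycle. Without the knockout cell with monocyte markers, Lgals3 was 2289 CPM and Apoe 47317 CPM. List medians changed sign for lipid droplets, to -0.004 without cluster 08 and -0.108 without doublets and the deepest cells, and, with TMM factors, for phagocytosis, to 0.009, and complement, to 0.143; the cause was not tested. Of the other list medians, 60 stayed within the spread between the libraries and 56 did not, all with the same sign.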
